A study of Mus musculus with 16 samples.

Results

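The RNA of 10 antioxidant enzymes was followed in adult mouse cardiomyocytes under pressure overload, with and without added proline dehydrogenase (PRODH). They are the glutathione peroxidases Gpx1, Gpx3 and Gpx4, catalase (Cat), the superoxide dismutases Sod1, Sod2 and Sod3, the mitochondrial peroxiredoxin Prdx3, the quinone reductase Nqo1 and the mitochondrial thioredoxin reductase Txnrd2. The genes were chosen by symbol, with earlier results of these data known. Each matched 1 row among the 57010 gene models of the table, and all 10 were among the 14066 with enough counts to test. After aortic constriction Gpx3, Gpx1 and Sod3 RNA rose in the hearts given the control virus, and Sod2 and Prdx3 fell. For all 5 the effect of TAC differed in the hearts given PRODH: Sod3 rose less, Sod2 and Prdx3 fell less, Gpx3 did not pass the test and Gpx1 was lower than in sham. Under PRODH the rise of Sod3 was called under each of the 4 scalings tried, whereas the results for Gpx3, Gpx1, Sod2 and Prdx3 against sham depended on the scaling.

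All mice were C57BL/6, labelled wild type, and their age and sex are not analysed here. An adeno-associated virus of serotype 9 carried either no enzyme (AAV9-Vector) or PRODH (AAV9-PRODH), a mitochondrial enzyme that begins the breakdown of proline. At 3 weeks after the injection the mice underwent a sham operation or transverse aortic constriction (TAC), a band around the aorta against which the left ventricle must pump, and cardiomyocytes were isolated 4 weeks after surgery. The 4 groups were thus vector with sham, vector with TAC, PRODH with sham and PRODH with TAC, with 4 libraries each. All 4 groups carried a virus, so none shows cardiomyocytes without one. The design text calls the overexpression cardiac-specific without naming the promoter. The labels do not say that each library came from a separate animal, and the p-values rest on the spread among libraries within the groups, part of which may be technical. In the main fit that spread was estimated jointly over all 16 libraries, not from the groups compared alone.

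Cells remove superoxide and peroxides in steps. Superoxide dismutases turn superoxide into hydrogen peroxide, in the cytosol (Sod1), the mitochondrial matrix (Sod2) and the extracellular space (Sod3), and peroxidases then reduce the peroxide to water. In mitochondria Prdx3 does this with electrons passed from NADPH through Txnrd2 and thioredoxin 2, while the glutathione peroxidases use glutathione and catalase works mainly in peroxisomes. Cardiomyocytes are dense in mitochondria, a main source of superoxide in heart muscle.

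Of the 10 enzymes, 4 are selenoproteins, in which a TGA codon inside the reading frame is read as selenocysteine, the reactive residue, in place of a stop. The coding sequences of GENCODE M21 (build GRCm38) hold 1 such TGA in each of Gpx1, Gpx3, Gpx4 and Txnrd2 and 0 in the other 6. The stretch around it is shown because it is the catalytic site that sets these 4 apart. The capitals mark the selenocysteine codon, at codon 47 of Gpx1, 73 of Gpx3, 129 of Gpx4 (longest coding sequence) and 526 of Txnrd2, where only 1 codon lies between it and the stop.
Gpx1: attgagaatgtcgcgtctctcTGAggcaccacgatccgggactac
Gpx3: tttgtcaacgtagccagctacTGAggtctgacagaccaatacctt
Gpx4: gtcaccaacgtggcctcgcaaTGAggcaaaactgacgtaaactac
Txnrd2: gagcctactgtgactggttgcTGAggctaa

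These 4 selenoproteins did not move as a block. Under the vector Gpx1 and Gpx3 rose after TAC, Txnrd2 fell and Gpx4 did not pass the test.

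The promoters of Gpx3 and Gpx1, which both rose after TAC under the vector, and of Sod2 and Prdx3, which both fell, are shown next because each pair moved together. They are the 250 bases before the transcription start in RefSeq (GRCm38.p6), with the GC box (GGGCGG on either strand, CCGCCC when read on the other) in capitals.
Gpx3 promoter (chr11:54902604-54902853, plus strand): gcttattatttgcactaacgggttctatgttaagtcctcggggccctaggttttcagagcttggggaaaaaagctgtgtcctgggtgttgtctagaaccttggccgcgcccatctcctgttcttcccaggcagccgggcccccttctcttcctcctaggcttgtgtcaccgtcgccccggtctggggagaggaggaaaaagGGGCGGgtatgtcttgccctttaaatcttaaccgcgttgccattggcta
Gpx1 promoter (chr9:108338830-108339079, plus strand): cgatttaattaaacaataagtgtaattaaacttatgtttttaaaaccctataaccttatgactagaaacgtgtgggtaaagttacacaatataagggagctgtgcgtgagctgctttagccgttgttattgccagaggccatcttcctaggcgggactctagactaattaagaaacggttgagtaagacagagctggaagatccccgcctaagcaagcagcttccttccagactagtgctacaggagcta
Sod2 promoter (chr17:13007589-13007838, plus strand): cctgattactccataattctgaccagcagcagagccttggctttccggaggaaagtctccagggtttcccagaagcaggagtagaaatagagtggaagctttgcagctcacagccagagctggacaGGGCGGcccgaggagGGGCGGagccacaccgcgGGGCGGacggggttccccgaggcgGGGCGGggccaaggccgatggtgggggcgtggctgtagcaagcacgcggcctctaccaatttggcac
Prdx3 promoter (chr19:60874539-60874788, minus strand): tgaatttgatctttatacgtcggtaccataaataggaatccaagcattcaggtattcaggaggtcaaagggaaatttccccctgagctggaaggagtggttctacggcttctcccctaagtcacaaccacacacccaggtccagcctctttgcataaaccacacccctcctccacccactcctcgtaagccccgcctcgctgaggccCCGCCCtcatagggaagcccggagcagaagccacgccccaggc

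In these windows the GC box was found 4 times before Sod2, once each before Gpx3 and Prdx3 and not before Gpx1. It was present before 8 of the 9 enzymes with an entry and in 32.74% of all 32851 promoters. These 2 figures are not like for like, since Gpx4 has 4 promoter entries and was counted where any of them held the motif, and the same holds for the motifs that follow. The promoters of the enzymes differed in G and C content, from 42.0% (Gpx1) to 66.4% (Sod1) against a median of 52.4% for all promoters, and the part of this in the GC box count was not tested. A further 3 motifs were searched on both strands, and matches of different motifs were counted separately even where they overlap. The antioxidant response element core (TGACNNNGC), bound by NRF2, was present in 10.16% of all promoters and in 1 of the 9 enzymes, Sod1, at 56 bases before the start. The estrogen-related receptor element (TCAAGGTCA) was in 0.3866% of promoters and 0 of 9, and the CCAAT box (CCAAT) in 33.85% and 5 of 9. A match is a description of these letters and not a binding site.

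Total counts ran from 15987580 to 22680212 per library. Genes of the mitochondrial genome and their nuclear copies took 61.16% and 60.91% of the counts on average in the vector and PRODH sham groups, against 54.79% and 55.01% after TAC. With TMM, the scaling used here, the median log2 difference of all genes after TAC was 0.02 under the vector and 0.02 under PRODH. Library size alone put it at 0.37 and 0.40. Leaving the mitochondrial genes and copies out of the total gave 0.15 and 0.19, so a part of the gap remained, and its source was not tested. Prodh RNA checked the virus labels. After sham it was 10.95 ± 0.454 CPM (normalised counts on a common library scale; SD, n = 4) with the vector and 13.81 ± 0.955 with PRODH, and after TAC 7.285 ± 1.182 and 13.61 ± 1.047. The sources used here do not say whether the viral PRODH sequence is counted in this row. The difference passed edgeR's quasi-likelihood test after TAC (log2 0.90 ± 0.10 SE, adjusted p = 2.19e-08) and missed it after sham (log2 0.33, adjusted p = 0.0517). Nppa, the natriuretic peptide induced by load, checked the surgery, with means of 154.5 and 2827 CPM after sham and TAC under the vector and 117.3 and 446.4 CPM under PRODH.

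Per length of transcript, Gpx4 was the most abundant of the 10 in all 4 groups, at 473.6 CPM per kilobase in vector sham. It was followed there by Sod1 (178), Prdx3 (149.5), Sod2 (71.1), Gpx3 (62.58), Cat (48.1), Gpx1 (40.28), Nqo1 (17.9), Txnrd2 (7.31) and Sod3 (2.31), and no neighbours in this order overlapped between libraries. After TAC under the vector Gpx3 moved from rank 5 to rank 2, at 135.2 CPM per kilobase, where its range overlapped that of Sod1 (129.2). Sod2 and Cat also overlapped there. Gpx3 made up 5.95% of the summed RNA of the 10, per length, in vector sham and 13.9% in vector TAC, against 5.08% and 6.90% under PRODH. Gpx4 made up about the same share throughout, with group means from 45.08% to 45.48%.

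After TAC under the vector 8 of the 10 enzymes changed (3 higher, 5 lower), in a comparison where 56.5% of all genes tested were called (30.3% higher, 26.2% lower). Under PRODH 8 changed as well (1 higher, 7 lower), against 35.0% of all genes (17.2% higher, 17.8% lower). PRODH against vector after TAC called 7 (2 higher, 5 lower), against 43.1% of all genes (18.5% higher, 24.6% lower). PRODH against vector after sham called 0 by edgeR, where 5.0% of all genes were called (2.81% higher, 2.20% lower). DESeq2 also called 0, and 2 enzymes, Gpx3 and Nqo1, had an unadjusted p under 0.05. The median log2 difference of the 10 was -0.22, -0.34, -0.15 and 0.01 in these comparisons, against 0.02, 0.02, -0.04 and 0.01 over all genes. The TAC comparison under the vector and the PRODH comparison after TAC share the vector TAC libraries. Because the 10 were chosen with earlier results of these data known, their counts beside the shares of all genes are a description only.

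**Figure D1:**
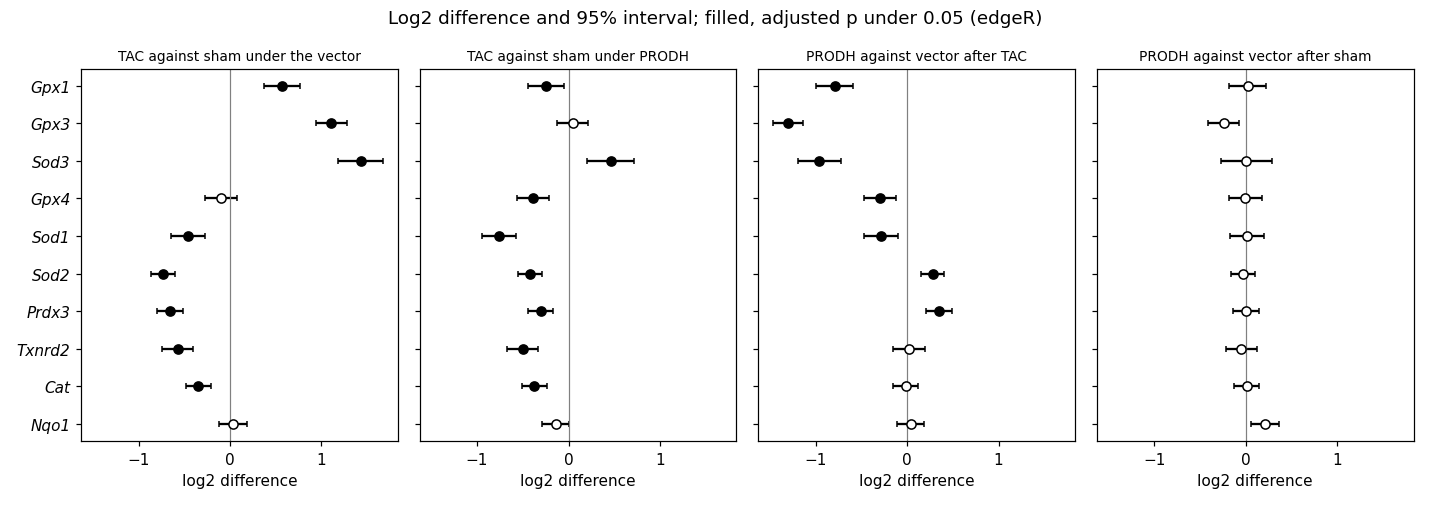
Log2 difference (points) with its 95% interval (bars) for the 10 enzymes in 4 comparisons, filled where the adjusted p is under 0.05. Gpx1, Gpx3 and Sod3 lie to the right after TAC under the vector and to the left for PRODH against vector after TAC, while all 10 are open after sham.

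Of the calls after TAC under the vector, the 3 rises and 3 of the 5 falls held under each of the 4 scalings tried. With library size alone, TAC under the vector left Gpx1, Gpx3 and Sod3 higher (log2 0.92, 1.46 and 1.78) and Sod2, Prdx3 and Txnrd2 lower (-0.38, -0.30 and -0.22). Sod1 (-0.11, edgeR adjusted p = 0.251) and Cat (0.01, adjusted p = 0.932) then lost their calls, while Gpx4 (0.25, adjusted p = 0.00321) and Nqo1 (0.39) were called higher, so that 5 were higher and 3 lower. Under PRODH that scaling called 4 enzymes, Gpx3 (0.43), Sod3 (0.84) and Nqo1 (0.24) higher and Sod1 (-0.38) lower. Over all genes it raised the share of calls that were higher from 53.6% to 86.2% under the vector and from 49.2% to 96.2% under PRODH. The total outside mitochondrial genes and copies gave shares of 67.8% and 79.6%, with median log2 differences of all genes of 0.15 and 0.19. For PRODH against vector after TAC all 7 calls held under each of the 4 scalings plotted by enzyme.

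**Figure D2:**
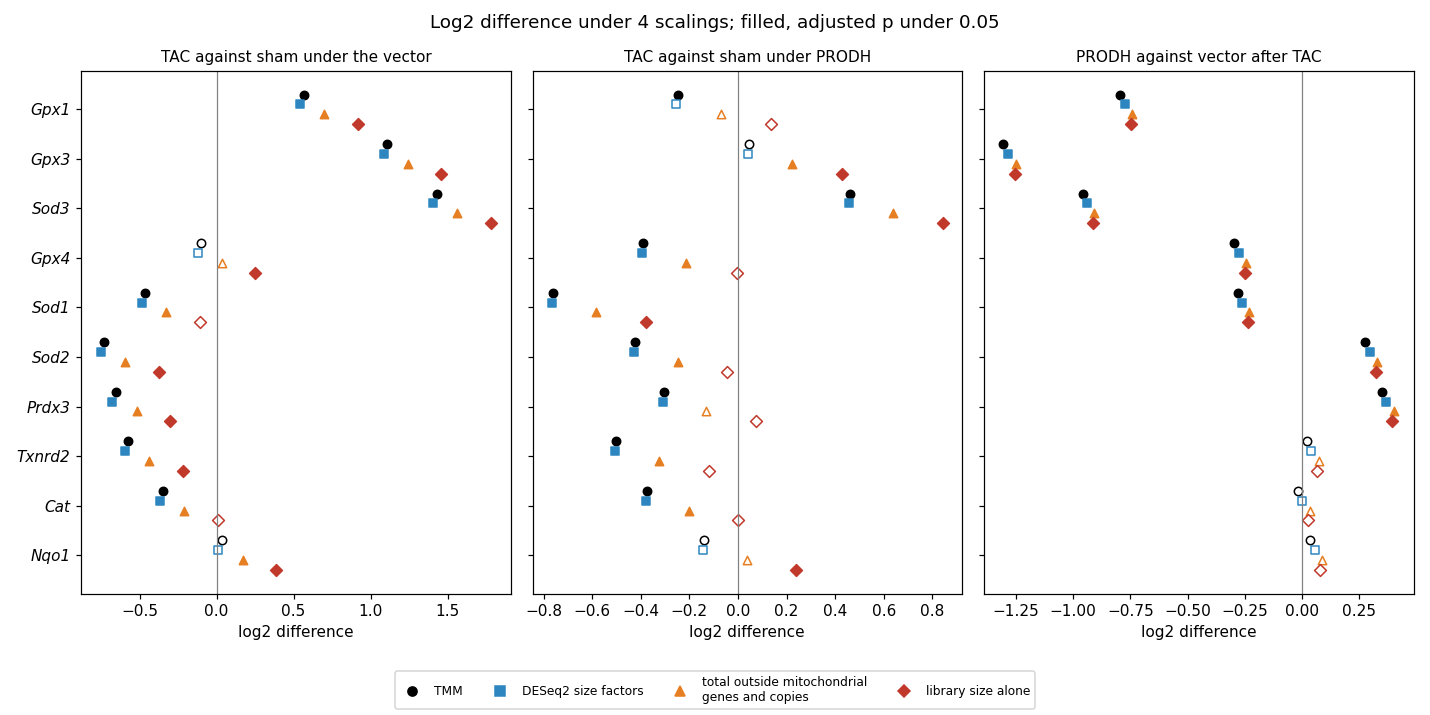
Log2 difference (horizontal axis) for each enzyme under 4 scalings in 3 comparisons, filled where the adjusted p is under 0.05. In both TAC comparisons library size alone shifts all 10 enzymes to the right, and in PRODH against vector after TAC the markers nearly coincide.

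Gpx3, the glutathione peroxidase that cells secrete, had the largest difference between PRODH and vector after TAC among the 10. Its levels were 88.8, 105.2, 109.5 and 95.4 CPM in the 4 vector sham libraries and 191.8, 198.9, 242.8 and 228.2 in vector TAC. With PRODH they were 78.5, 81.5, 83.4 and 94.7 CPM after sham and 84.9, 85.6, 84.9 and 93.2 after TAC. Every vector TAC library lay above all 12 others, and the PRODH groups overlapped each other. Gpx3 rose 2.16-fold after TAC under the vector (log2 1.11 ± 0.08 SE, edgeR adjusted p = 1.1e-12). Under PRODH the log2 difference was 0.04, with a 95% interval of -0.12 to 0.21 (edgeR adjusted p = 0.71). That result depended on the scaling: Gpx3 was called higher after TAC under PRODH with library size alone (log2 0.43, edgeR adjusted p = 2.37e-05) and with the total outside mitochondrial genes and copies (log2 0.22, adjusted p = 0.0194). After TAC it was 2.47-fold lower with PRODH (log2 -1.31 ± 0.08, edgeR adjusted p = 6.3e-14). After sham the difference was -0.24 on the log2 scale and missed the threshold (edgeR adjusted p = 0.091).

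Gpx1, the glutathione peroxidase of cytosol and mitochondria, followed a similar course with smaller steps. It stood at 37.2, 49.5, 45.7 and 40.4 CPM in vector sham and at 59.3, 65.2, 68.3 and 63.4 in vector TAC. The PRODH libraries held 35.3, 40.3, 47.7 and 52.4 CPM after sham and 35.2, 35.2, 37.5 and 39.7 after TAC. The vector TAC libraries again lay above all others, and the PRODH TAC values sat at the low end of the PRODH sham range. The rise under the vector was 1.48-fold (log2 0.57 ± 0.10, edgeR adjusted p = 1.55e-05), and after TAC PRODH hearts were 1.73-fold lower (log2 -0.79 ± 0.10, edgeR adjusted p = 1.7e-07). Under PRODH Gpx1 was lower after TAC by a call that only just passed (log2 -0.25 ± 0.10, edgeR adjusted p = 0.0489). That call was lost on leaving out any 1 library except PRODH sham library 1, down to log2 -0.12 (edgeR adjusted p = 0.386) without PRODH sham library 4, and with the total outside mitochondrial genes and copies (log2 -0.07, edgeR adjusted p = 0.553). With library size alone the sign turned (log2 0.14).

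Gpx4, which reduces lipid peroxides in membranes, was not called after TAC under the vector (471.3 ± 21.9 to 440.2 ± 34.5 CPM, SD, n = 4, log2 -0.10, edgeR adjusted p = 0.339). It was lower after TAC under PRODH, 358.7 ± 32.4 against 470.7 ± 71.9 CPM (log2 -0.39, edgeR adjusted p = 0.000702), though not with library size alone (-0.01). PRODH TAC libraries ran from 333.2 to 405.4 CPM and vector TAC libraries from 392.3 to 468.7, so the ranges overlapped. The difference between them passed the test (log2 -0.29 ± 0.09, edgeR adjusted p = 0.00645). The call was lost, with the difference still negative, without vector TAC libraries 3 and 4 (log2 -0.21, edgeR adjusted p = 0.125). Gpx4 has a pseudogene, Gpx4-ps2, that is 99.738% identical over 762 bases in GENCODE M21 and held 0.801% of the Gpx4 count, so reads may be divided between them.

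Sod3 is the extracellular dismutase. Its levels were low: 5.91, 9.89, 9.96 and 8.78 CPM in vector sham against 22.5, 20.6, 25.5 and 25.5 in vector TAC. With PRODH they were 7.41, 8.16, 9.46 and 10.1 CPM after sham and 11.99, 11.44, 11.01 and 13.86 after TAC. The PRODH TAC libraries lay between the sham libraries and the vector TAC libraries without overlap. Sod3 rose 2.69-fold after TAC under the vector (log2 1.43 ± 0.12, edgeR adjusted p = 7.39e-11) and 1.38-fold under PRODH (log2 0.46 ± 0.13, edgeR adjusted p = 0.0052). After TAC it was 1.95-fold lower with PRODH (log2 -0.96 ± 0.11, edgeR adjusted p = 8.8e-08).

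Sod2, the manganese enzyme of the mitochondrial matrix, moved the other way. It measured 427.6, 418.3, 407.9 and 412.9 CPM in vector sham and 249.1, 268.9, 238.2 and 248.9 in vector TAC. The PRODH libraries held 400.4, 408.0, 401.5 and 425.4 CPM after sham and 300.2, 285.1, 314.4 and 319.5 after TAC. Without overlap, the PRODH TAC values stood higher than those of vector TAC and lower than those of sham. Sod2 fell 1.66-fold under the vector (log2 -0.73 ± 0.06, edgeR adjusted p = 4.98e-11) and 1.34-fold under PRODH (log2 -0.42 ± 0.06, edgeR adjusted p = 5.58e-06), the latter not with library size alone (log2 -0.05). After TAC it was 1.21-fold higher with PRODH (log2 0.28 ± 0.06, edgeR adjusted p = 0.000679). Sod2 shares 3110 bases at 98.264% identity with a transcript of Rps6ka2 in GENCODE M21, whose count was 5.722% of the Sod2 count, so its level carries that uncertainty.

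Sod1 is the copper and zinc enzyme of the cytosol. Vector libraries held 108.2 to 121.4 CPM after sham and 77.8 to 90.7 after TAC, and PRODH libraries 94.7 to 138.3 and 58.8 to 75.0. The ranges did not overlap within either virus. The log2 difference was -0.46 ± 0.09 under the vector (edgeR adjusted p = 8.05e-05; -0.11 and not called with library size alone) and -0.76 ± 0.09 under PRODH (edgeR adjusted p = 2.52e-07). After TAC Sod1 was lower with PRODH (log2 -0.28 ± 0.09, edgeR adjusted p = 0.0135). The call was lost, with the difference still negative, without vector TAC library 2 (log2 -0.23, edgeR adjusted p = 0.0502) or PRODH TAC library 2 (log2 -0.21, adjusted p = 0.0701). The ratio of Sod3 to Sod2, per length, needs no scaling between libraries, and its median went from 0.0352 to 0.151 after TAC under the vector and from 0.0341 to 0.0628 under PRODH.

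Prdx3, the mitochondrial peroxidase, stood at 222.2, 232.7, 210.1 and 218.4 CPM in vector sham and at 144.8, 159.1, 127.3 and 130.0 in vector TAC. With PRODH it was 225.6, 220.2, 217.2 and 221.5 CPM after sham and 178.3, 172.9, 183.1 and 181.9 after TAC. As for Sod2, the 4 PRODH TAC libraries fell between the vector TAC and the sham libraries. Prdx3 fell 1.57-fold under the vector (log2 -0.65 ± 0.07, edgeR adjusted p = 2.24e-09) and 1.24-fold under PRODH (log2 -0.30 ± 0.07, edgeR adjusted p = 0.000838), the latter turning to 0.07 with library size alone and losing its call with the total outside mitochondrial genes and copies (log2 -0.13, edgeR adjusted p = 0.113). It was 1.28-fold higher with PRODH after TAC (log2 0.35 ± 0.07, edgeR adjusted p = 0.000123). Sod2 and Prdx3 were the closest pair among the 10 over the 16 libraries, with a root mean square difference of 0.076 between their centred log2 CPM.

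Txnrd2, which keeps mitochondrial thioredoxin reduced, fell in both arms. Its libraries ran from 19.4 to 23.5 CPM in vector sham and 13.3 to 14.7 in vector TAC, and from 18.8 to 22.3 and 13.4 to 15.3 under PRODH. The log2 difference was -0.57 ± 0.08 (edgeR adjusted p = 1.16e-06) and -0.50 ± 0.08 (edgeR adjusted p = 2.67e-05), and the call under PRODH was lost with library size alone (-0.12). Between PRODH and vector after TAC it was 0.02, with a 95% interval of -0.15 to 0.20 (edgeR adjusted p = 0.854).

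Cat, which breaks down hydrogen peroxide, fell from 125.7 ± 2.64 to 98.82 ± 6.58 CPM (SD, n = 4) under the vector and from 126.8 ± 10.1 to 97.71 ± 3.26 under PRODH. These were log2 differences of -0.35 ± 0.07 (edgeR adjusted p = 6.78e-05) and -0.38 ± 0.07 (edgeR adjusted p = 6.92e-05), neither of which held with library size alone (0.01 and -0.0011). After TAC the difference between the viruses was -0.02, with a 95% interval of -0.15 to 0.12. Nqo1, a classic target of NRF2, was not called in any of the 5 comparisons on the TMM scale, with group means from 27.8 to 32.2 CPM, but was higher after TAC with library size alone (log2 0.39 under the vector and 0.24 under PRODH). With the total outside mitochondrial genes and copies it was also called higher after TAC under the vector (log2 0.17, edgeR adjusted p = 0.0393). After TAC its difference between the viruses was 0.04 on the log2 scale, with a 95% interval of -0.11 to 0.19.

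**Figure D3:**
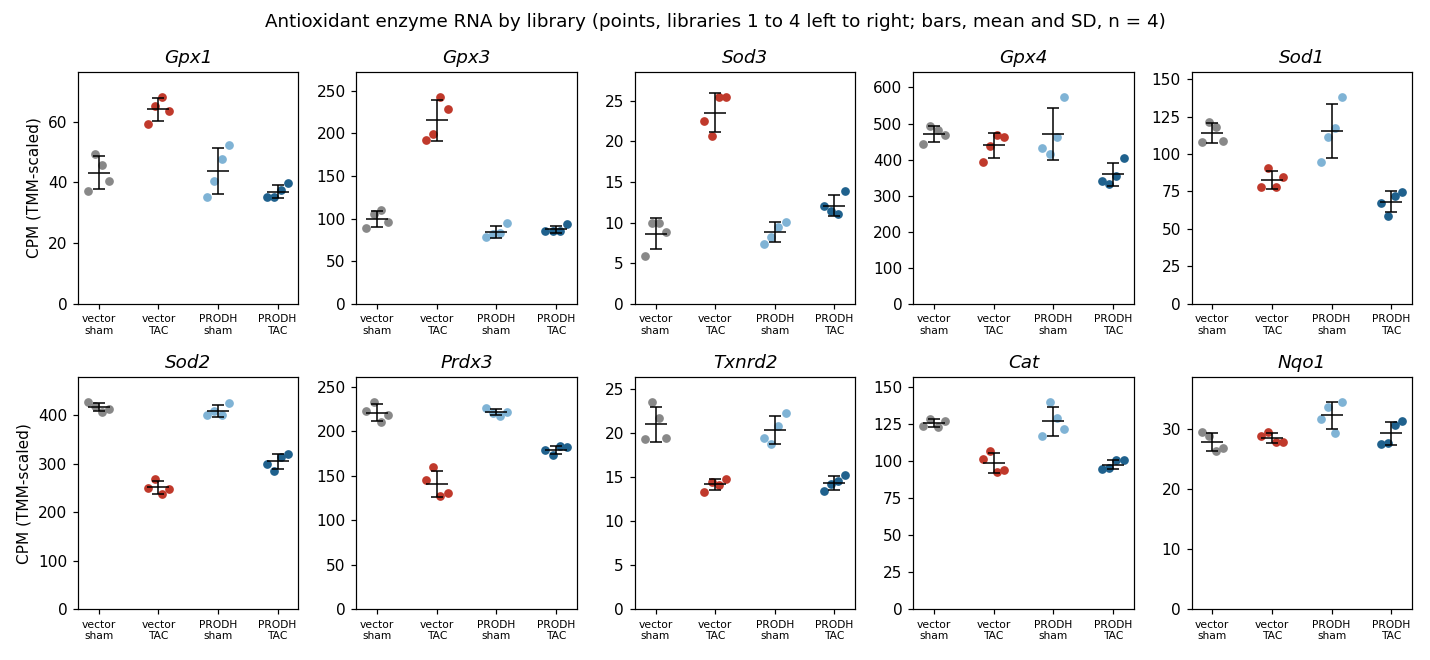
TMM-scaled CPM of each enzyme (vertical axis from 0) in the 4 libraries of each group, with the mean and SD in black. The 4 vector TAC libraries stand above all others for Gpx3, Gpx1 and Sod3, and for Sod2 and Prdx3 the PRODH TAC libraries sit between the vector TAC and the sham libraries.

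Whether the effect of TAC itself differed between the viruses was tested by an interaction, which called 5 of the 10 (2 higher, 3 lower) against 26.8% of all genes (10.9% higher, 15.8% lower). Gpx3 (log2 -1.07, edgeR adjusted p = 3.48e-08), Sod3 (-0.97, adjusted p = 0.000139) and Gpx1 (-0.81, adjusted p = 6.47e-05) had negative interactions, so that their difference between TAC and sham was lower with PRODH. Sod2 (0.31, edgeR adjusted p = 0.0109) and Prdx3 (0.35, adjusted p = 0.00738) had positive ones. The interaction for Prdx3 was lost without vector TAC libraries 3 and 4 (log2 0.24, edgeR adjusted p = 0.074). For Gpx4 (-0.29, edgeR adjusted p = 0.0726), Sod1 (-0.30, adjusted p = 0.0836), Nqo1 (-0.17, adjusted p = 0.226), Txnrd2 (0.07, adjusted p = 0.702) and Cat (-0.03, adjusted p = 0.85) it missed the threshold.

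Markers of other cell types differed between the groups as well, though not all in the pattern of these enzymes. All 12 fibroblast markers rose after TAC under the vector and all 12 were lower with PRODH after TAC. Under the vector their summed level ran from 194.1 to 277.8 CPM after sham and 1565 to 1751 after TAC, and under PRODH from 244.5 to 256.2 and 428.5 to 543.7, with no marker at 0 throughout a group. The 12 endothelial markers summed to 402.4 to 517.7, 751.3 to 1003, 434.4 to 483.1 and 604.6 to 700.7 CPM in the same order, and the 12 myeloid markers to 130.2 to 205, 376.2 to 406.6, 200.5 to 241.6 and 213.5 to 266. The 10 mural markers ranged over 427.2 to 447.9, 523.5 to 580.5, 415 to 448.2 and 490.3 to 558.3 CPM, the 8 red cell and platelet markers over 111.9 to 189, 229.4 to 307.1, 68.84 to 95.17 and 110.5 to 127.5, and the 8 lymphoid markers stayed at or under 2.17. The 12 cardiomyocyte markers, among them Myh6 and Tnnt2, summed to 49610 to 54620, 37300 to 40060, 47730 to 55210 and 38300 to 43140 CPM, far above the other marker sums in every library. All these sums are on the TMM scale and were not computed under the other scalings. Library size alone put the median log2 difference of all genes after TAC at 0.37 under the vector and 0.40 under PRODH. The size of the drop in the cardiomyocyte sum therefore depends on the scaling. The part of other cells in the rises of Gpx3, Gpx1 and Sod3, and of the lower cardiomyocyte sum in the falls of the other enzymes, was not tested. In bulk RNA fewer cells of a type and less RNA per cell cannot be told apart.

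**Figure D4:**
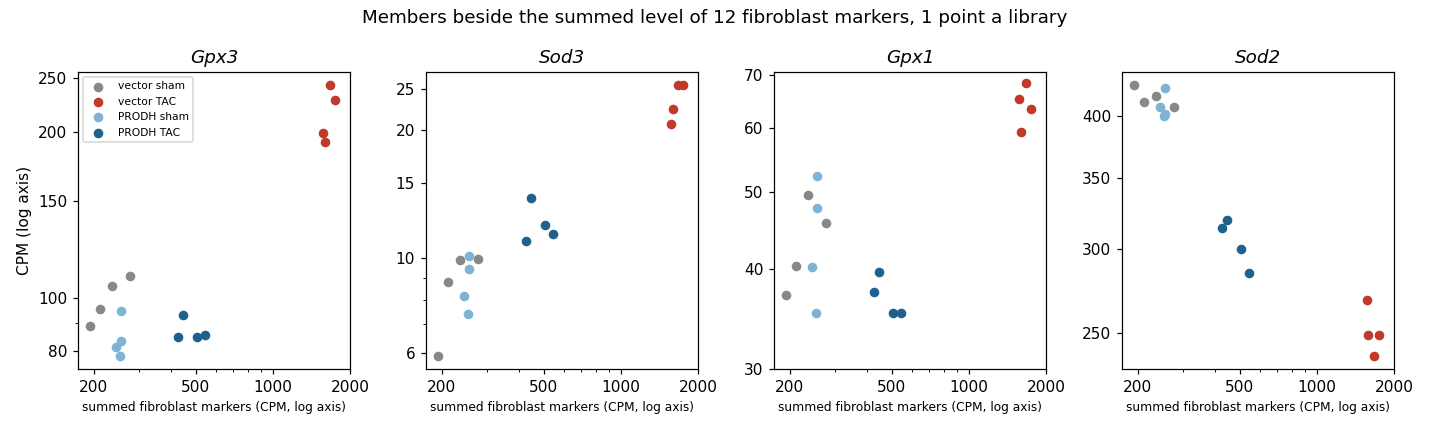
CPM of 4 enzymes (vertical log axes) against the summed CPM of 12 fibroblast markers (horizontal log axes), 1 point a library. The vector TAC libraries stand apart at 1565 to 1751 CPM, and the PRODH TAC libraries at 428.5 to 543.7 lie above sham on the horizontal axis while their Gpx3 and Gpx1 levels overlap those of PRODH sham.

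The other genes of these pathways are given by list, to be read against the shares of all genes called: 56.5% after TAC under the vector (30.3% higher, 26.2% lower) and 43.1% for PRODH against vector after TAC (18.5% higher, 24.6% lower). Of 13 genes of oxidant-producing enzymes 9 rose and 4 fell after TAC under the vector (9 and 2 with library size alone), and 8 were lower and 2 higher with PRODH after TAC, where 24.6% and 18.5% of all genes were. Nox4, an NADPH oxidase of heart muscle and fibroblasts, rose by log2 3.29 ± 0.25 (edgeR adjusted p = 2.28e-12) and was lower with PRODH by -2.49 ± 0.21 (adjusted p = 6.96e-11). Its level was low, with means of 0.40 CPM in vector sham, 4.00 in vector TAC and 0.71 in PRODH TAC. Ncf1, a subunit of the phagocyte oxidase at 2.03 CPM in vector sham, had log2 differences of 1.65 and -1.23 (edgeR adjusted p = 6.47e-10 and 7.07e-08). Maob, the monoamine oxidase of the outer mitochondrial membrane, went the other way, at -1.09 and 0.50 (edgeR adjusted p = 2.7e-11 and 6.84e-05).

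Of 19 genes of NRF2 and its targets, 8 rose and 4 fell after TAC under the vector (14 and 0 with library size alone), and 9 were lower and 2 higher with PRODH after TAC. The 12 of 19 after TAC are near the 56.5% of all genes, and with library size alone 86.2% of all calls were higher, so neither count is a result about the list. Hmox1, which breaks down heme, had log2 differences of 1.22 ± 0.14 and -0.75 ± 0.13 (edgeR adjusted p = 1.67e-08 and 2.57e-05), and Ftl1, the light chain of ferritin, 0.84 and -0.61 (adjusted p = 3.02e-09 and 1.95e-06). After sham 4 of the 19 were higher with PRODH and 0 lower, where 2.81% of all genes were higher and 2.20% lower. Among them were Hmox1 (log2 0.67, edgeR adjusted p = 0.00473) and Ftl1 (0.63, adjusted p = 1.18e-05). Among 11 further selenoproteins 5 rose and 2 fell after TAC under the vector (6 and 0 with library size alone), and 6 were lower and 1 higher with PRODH after TAC. Of these counts the 7 of 11 after TAC are near the share of all genes. Dio2, which activates thyroid hormone, was at 0.583 ± 0.250 CPM in vector sham, 7.89 ± 1.01 in vector TAC and 1.24 ± 0.471 in PRODH TAC. Selenom had log2 differences of 0.89 and -0.84 (edgeR adjusted p = 8.92e-08 and 2.64e-07). Of 10 genes of selenium supply and selenoprotein synthesis 3 rose and 2 fell (6 and 1 with library size alone), and 2 were higher and 2 lower with PRODH. Both counts of the selenium supply list are near the shares of all genes, 56.5% and 43.1%, and are no result about it.

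Sod2 and Prdx3 share the mitochondrion with the enzymes that supply NADPH there. All 6 tested genes of that list changed after TAC under the vector, 5 lower and 1 higher (3 and 1 with library size alone), and with PRODH after TAC 2 were higher and 1 lower, near the 43.1% of all genes called. Nnt, the transhydrogenase that makes NADPH from the proton gradient, had log2 differences of -0.77 ± 0.06 and 0.34 ± 0.06 (edgeR adjusted p = 1.92e-11 and 8.65e-05), and Nadk2, the mitochondrial NAD kinase, -1.21 and 0.79 (adjusted p = 9.88e-13 and 1.6e-08). Of 17 peroxisomal genes 12 fell and 0 rose, and 8 were higher and 0 lower with PRODH, where 26.2% of all genes were lower and 18.5% higher in the same comparisons. Abcd3, a peroxisomal fatty acid transporter, was at -0.99 and 0.57 (edgeR adjusted p = 5.81e-13 and 9.06e-08). With library size alone the peroxisomal counts after TAC became 2 higher and 4 lower, while 8 were again higher with PRODH.

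Thiol enzymes form the next lists. Of 11 thioredoxin and glutaredoxin genes 8 fell and 0 rose under the vector, and with PRODH 3 were higher and 1 lower, against 26.2% of all genes lower after TAC and 43.1% called in either direction with PRODH. The 4 of 11 with PRODH are near that share. Msrb2, a mitochondrial methionine sulfoxide reductase, had log2 differences of -0.94 and 0.43 (edgeR adjusted p = 3.73e-11 and 7.57e-05). Of 6 genes of the peroxiredoxin list 4 fell and 0 rose, and with PRODH 1 was higher and 1 lower, where 43.1% of all genes were called. Prdx1, a cytosolic one, was at -0.58 and 0.44 (edgeR adjusted p = 1.59e-06 and 0.00015). Prdx2 was lower in both, at -0.31 and -0.23 (edgeR adjusted p = 0.0021 and 0.0272). Glutathione S-transferases were 1 higher and 9 lower of 13, and 1 higher and 5 lower with PRODH, near the 43.1% of all genes. The 5 lower became 3 under each of the other 3 scalings. Gstk1, the mitochondrial and peroxisomal one, was at -1.25 and 0.41 (adjusted p = 4.43e-13 and 0.00039 by edgeR). Of 9 genes of glutathione synthesis and recycling 1 rose and 5 fell, and 0 were higher and 2 lower with PRODH. Library size alone turned the calls of the thioredoxin list to 3 higher and 1 lower, of the peroxiredoxins to 2 and 0, of the glutathione genes to 4 and 1 and of the transferases to 4 and 3, and Prdx1 lost its call. Of 5 partners of the dismutases 3 fell and 0 rose, and 2 were higher and 2 lower with PRODH, with library size alone giving 2 higher and 0 lower. Calls in either direction after TAC under the vector on the partner, peroxiredoxin and glutathione synthesis lists were near the 56.5% of all genes. Those counts are no result about these lists. Of 2 other glutathione peroxidases tested Gpx7 was at 0.72 and -0.49 (edgeR adjusted p = 0.000277 and 0.0072) and Gpx8 passed neither test.

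The median log2 difference of each list is given for TAC under the vector and then for PRODH against vector after TAC, where the medians of all genes were 0.02 and -0.04. It was 1.08 and -0.55 for the oxidant sources, 0.16 and -0.15 for NRF2 and its targets, 0.03 and -0.24 for the further selenoproteins and 0.36 and -0.20 for the other glutathione peroxidases. Mitochondrial NADPH supply stood at -0.40 and 0.08, the peroxisome list at -0.37 and 0.21, and the thioredoxin and glutaredoxin list at -0.34 and -0.06. For the peroxiredoxins the medians were -0.36 and -0.12, for the glutathione S-transferases -0.27 and -0.09, for glutathione synthesis -0.29 and 0.08, for the dismutase partners -0.23 and -0.25 and for selenium supply -0.13 and 0.03. The median and the calls point in different directions for the thioredoxin and glutathione synthesis lists with PRODH after TAC and for selenium supply after TAC under the vector. Fibroblast, endothelial and myeloid markers were higher in the same vector TAC libraries, and their part in the counts of these lists was not tested.

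**Figure D5:**
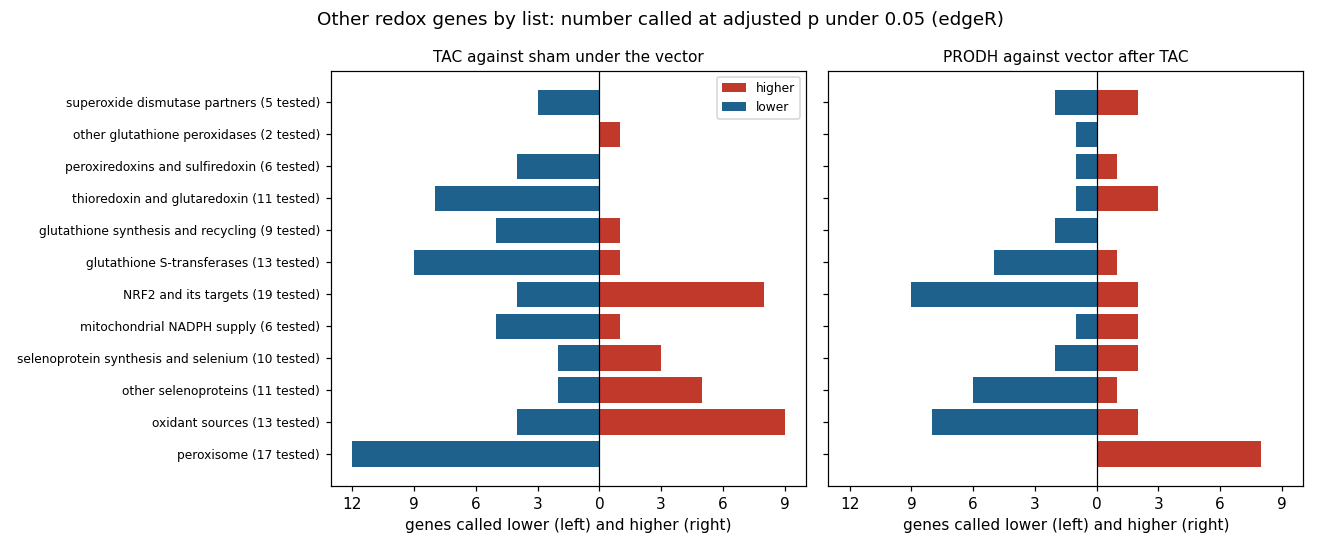
Number of genes of each list called lower (bars to the left of 0) and higher (to the right) for TAC against sham under the vector and PRODH against vector after TAC, with the number tested beside each name. The oxidant sources hold 9 higher and 4 lower on the left and 2 higher and 8 lower on the right, and the peroxisome list 12 lower, then 8 higher.

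The genes whose profile over the 16 libraries was most like each enzyme were found among 8074 candidates, by the root mean square difference of centred log2 CPM. For Sod2 they were Idh3a (0.0413), Atp5pb (0.0462) and Suclg2 (0.0479), and for Prdx3 Hibadh (0.0467), Fh1 (0.0564) and Mrpl42 (0.0602), all of them genes of mitochondrial proteins. For Gpx3 they were Pmepa1 (0.118), Clu (0.128) and Tubb2a (0.143), and for Sod3 Tuba1a (0.0957), Sorbs3 (0.127) and Adam15 (0.139). Gpx1 was most like Jpt1 (0.0817), Mif (0.0882) and Cystm1 (0.0956). Those most like Sod1 were Cisd1 (0.0687), Glrx5 (0.0748) and Atp5g3 (0.0765), also genes of mitochondrial proteins. Such neighbours are thus not particular to Sod2 and Prdx3, and the share of mitochondrial genes among the candidates was not counted. The nearest to the others were Cops6 for Gpx4, Eif1ax for Cat, Srp72 for Nqo1 and Prkag1 for Txnrd2. Genes that follow the groups closely share libraries and scaling with the enzymes.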

How the data were processed

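RNA-seq libraries of 16 cardiomyocyte samples were used, grouped by their labels. The authors deposited estimated counts per gene, which need not be whole, with gene lengths. Of 57010 gene models 9538 have a fractional count. No source used here names the aligner, counter, strand setting or build. All 16 columns of single libraries matched a sample by name, and a further column per group, holding the group's mean, was not used. After rounding, counts went into edgeR 4.0.16 (R 4.3.3, limma 3.58.1) with filterByExpr (minimum count 10, total 15), TMM, and a robust quasi-likelihood fit of 4 groups over 16 libraries, without a block. The Benjamini-Hochberg adjustment ran over 14066 genes, with a threshold of 0.05. CPM are TMM-scaled, and CPM per kilobase use the deposited lengths. Depth was at least 15987580 counts per library. Alternatives were DESeq2 1.42.0, other scalings and filters, a replicate block and left-out libraries. The test was tried on simulated data. Members and lists were chosen with earlier results of these data known. Named genes were the 10, Prodh, load landmarks, up to 3 per list with the smallest p in each main comparison, of which the text gives some, and the 3 most alike per enzyme (at least 5 CPM). Near copies needed 90% identity over 300 bases. No libraries were duplicates (chi-square per gene 2.872 to 30.73 over 24 pairs).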

Additional observations from a re-analysis of the deposited data

Results flagged for a closer look

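Gpx3 in PRODH TAC library 4 was at 93.17 CPM, apart from the other 3 libraries of its group at 84.87 to 85.56. It was the only 1 of 40 sets of 4 libraries looked at in which a library stood apart by Dixon's criterion, which chance meets in about 1 in 20 sets. The effect of TAC differed between the viruses by the interaction test for 5 enzymes. On the log2 scale the effect under PRODH minus that under the vector was -0.81 for Gpx1, -1.07 for Gpx3, -0.97 for Sod3, 0.31 for Sod2 and 0.35 for Prdx3.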

How the results depend on the processing

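Leaving out 1 library at a time called 8 to 8 enzymes for TAC under the vector, 7 to 8 for TAC under PRODH, 6 to 7 for PRODH against vector after TAC, 0 to 1 for PRODH against vector after sham and 5 to 6 for the interaction. The 1 after sham was Gpx3, without vector sham library 1 (adjusted p = 0.0407) or PRODH sham library 4 (adjusted p = 0.0232). The interaction also reached Gpx4 without vector TAC library 1 (adjusted p = 0.0402) or PRODH TAC library 4 (0.0482), and Sod1 without PRODH sham library 1 (0.0338). Changes of sign on leaving out 1 library were confined to log2 differences near 0. Their ranges after sham were -0.084 to 0.11 for Gpx1, -0.12 to 0.053 for Gpx4, -0.0396 to 0.0452 for Cat, -0.0903 to 0.097 for Sod1, -0.13 to 0.079 for Sod3, -0.025 to 0.027 for Prdx3 and -0.10 to 0.0115 for Txnrd2. For PRODH against vector after TAC they were -0.0451 to 0.0269 for Cat and -0.0085 to 0.0655 for Txnrd2, for Nqo1 after TAC under the vector -0.0044 to 0.0464 and for the interaction of Cat -0.0583 to 0.0663.

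With library size alone TAC under PRODH called 4 enzymes in place of 8. Signs turned there for Gpx1 (0.14), Prdx3 (0.0728) and Nqo1 (0.24), for Gpx4 (0.25) and Cat (0.0088) after TAC under the vector, for Cat between the viruses after TAC (0.027) and for Gpx4 after sham (0.0097). The total outside mitochondrial genes and copies, chosen after seeing the data, turned Gpx4 after TAC under the vector (0.0338), Nqo1 under PRODH (0.0354), Cat between the viruses after TAC (0.0356), Gpx4 after sham (0.0052) and the interaction of Cat (0.0112). It also called Gpx3 under PRODH (adjusted p = 0.0194) and Nqo1 under the vector (0.0393) higher after TAC, and lost Prdx3 (0.113) and Gpx1 (0.553) under PRODH. Cat after TAC was 0.0023 between the viruses with DESeq2's size factors, 0.0022 with DESeq2's Wald test and 0.0285 with only the groups compared, and Prdx3 after sham was -0.0034 with no filter and -0.0026 with only the groups compared. The cause of these changes was not tested. Gpx1 after TAC under PRODH also lost its call with DESeq2 (adjusted p = 0.056), with its size factors (0.052) and with only the groups compared (0.0654). Without vector TAC libraries 3 and 4 together, also chosen after seeing the data, 1 enzyme was called after sham (Gpx3, adjusted p = 0.0411), 5 for PRODH against vector after TAC (Gpx4 at 0.125 and Sod1 at 0.0504 lost) and 4 for the interaction (Prdx3 at 0.074 lost).

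Same-numbered libraries showed little common deviation (correlations -0.093 to 0.1684, and over 0.1 in every pair of no comparison). At most 2 of 4 pairs in a comparison correlated best with their own number, and so few pairs cannot exclude a pairing by number. A replicate block called 1 enzyme after sham (Gpx3, log2 -0.24, edgeR adjusted p = 0.0495) and 6 for the interaction, adding Gpx4 (adjusted p = 0.0369), and left the other 3 counts at 8, 8 and 7.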
